A study of Homo sapiens with 6 samples.

Results

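ATP synthase is the mitochondrial rotary enzyme whose subunits are encoded by nuclear genes and, for a few of them, by mitochondrial DNA. Of its nuclear genes, 10 are described here, with GABPA ChIP-seq peaks in the human melanoma cell line A-375. They are ATP5F1A, ATP5F1B, ATP5F1C, ATP5F1D and ATP5F1E of the catalytic head and central stalk, ATP5PB, ATP5PD, ATP5PF and ATP5PO of the peripheral stalk, and ATP5MK, a small subunit of the membrane sector. They stand among 19974 genes that code for protein, counted over chromosome X and chromosomes 1 to 22. A gene counted as having a peak where the peak's summit, its point of highest read coverage, lay within 1 kb of either end of the gene's RefSeq span, and 6 of the 10 genes had such a peak in at least 1 library. The genes and the rule were chosen with these peak lists in view, so the presence, strength and rank of their peaks are given as a description and no test was made on them.

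The 3 ChIP libraries came from 3 conditions. The first was a clonal line in which CRISPR had removed exon 2 of the gene for GABP's B1 subunit and TERT had then been knocked in (called B1 knockout here). The second was a clonal control line with a ROSA26 knockout, and the third was the parental A-375 culture with no knockout. All 3 were precipitated with the same antibody against GABPA, and each condition had 1 ChIP library and 1 input library, 6 samples in all, of which the inputs were not analysed here. Knockout lines were grown from individual sorted cells, so the loss of exon 2, the TERT knock-in and the clone cannot be told apart. With 1 library per condition no difference has a replicate check, and intervals cover counting error only.

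GABPA is the ETS-family DNA-binding subunit of GA-binding protein, which recognises GGAA inside a longer purine-rich core. Its beta subunits, among them B1, bind no DNA on their own and bring the activating domain and the contact through which complexes join into tetramers. The factor, also known as nuclear respiratory factor 2, is known for binding promoters of nuclear genes for oxidative phosphorylation, and ATP synthase is the last complex of that pathway: protons passing through the membrane sector turn the central stalk, and the peripheral stalk holds the catalytic head still while it makes ATP.

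The promoters are shown because the GABPA peaks lie over them. Each stretch holds the 250 bases before a start that RefSeq lists for the gene and the 10 bases from that start on, read 5′ to 3′ on the gene's own strand (RefSeq, GRCh38.p14). Capitals mark the short ETS core CGGAAG and its complement CTTCCG. The first 6 had a summit in all 3 libraries, and the last 2, from ATP5PB and ATP5PO, had none and hold no short core. The stretches are ATP5MK at chr10:103396466-103396725 on the minus strand, ATP5PF at chr21:25734895-25735154 (minus, the inner of its listed starts), ATP5PD at chr17:75046960-75047219 (minus), ATP5F1C at chr10:7787927-7788186 (plus), ATP5F1E at chr20:59032326-59032585 (minus), ATP5F1A at chr18:46098287-46098546 (minus, an inner start), ATP5PB at chr1:111449214-111449473 (plus) and ATP5PO at chr21:33915795-33916054 (minus).
ATP5MK: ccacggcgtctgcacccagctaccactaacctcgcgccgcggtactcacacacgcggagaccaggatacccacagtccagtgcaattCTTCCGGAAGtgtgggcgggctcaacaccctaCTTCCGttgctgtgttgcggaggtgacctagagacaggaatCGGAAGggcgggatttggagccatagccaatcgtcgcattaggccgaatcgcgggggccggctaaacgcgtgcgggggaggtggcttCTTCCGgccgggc
ATP5PF: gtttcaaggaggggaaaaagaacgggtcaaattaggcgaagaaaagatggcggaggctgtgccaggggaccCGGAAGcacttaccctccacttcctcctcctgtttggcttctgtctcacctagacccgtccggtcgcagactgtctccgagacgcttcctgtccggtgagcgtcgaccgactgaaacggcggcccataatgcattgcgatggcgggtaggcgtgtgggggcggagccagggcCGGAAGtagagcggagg
ATP5PD: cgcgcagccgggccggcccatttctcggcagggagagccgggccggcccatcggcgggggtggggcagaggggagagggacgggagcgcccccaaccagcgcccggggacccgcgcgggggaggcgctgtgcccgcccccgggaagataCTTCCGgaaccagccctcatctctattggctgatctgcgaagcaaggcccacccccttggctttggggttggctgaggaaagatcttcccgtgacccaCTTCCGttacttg
ATP5F1C: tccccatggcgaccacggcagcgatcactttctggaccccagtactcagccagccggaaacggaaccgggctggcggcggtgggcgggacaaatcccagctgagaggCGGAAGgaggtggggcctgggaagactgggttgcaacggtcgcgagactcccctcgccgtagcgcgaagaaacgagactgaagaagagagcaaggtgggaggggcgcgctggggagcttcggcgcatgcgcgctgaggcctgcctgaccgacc
ATP5F1E: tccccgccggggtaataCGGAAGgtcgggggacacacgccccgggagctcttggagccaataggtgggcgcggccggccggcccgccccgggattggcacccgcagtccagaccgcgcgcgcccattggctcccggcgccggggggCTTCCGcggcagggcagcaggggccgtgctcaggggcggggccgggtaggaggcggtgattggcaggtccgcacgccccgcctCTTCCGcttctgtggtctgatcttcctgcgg
ATP5F1A: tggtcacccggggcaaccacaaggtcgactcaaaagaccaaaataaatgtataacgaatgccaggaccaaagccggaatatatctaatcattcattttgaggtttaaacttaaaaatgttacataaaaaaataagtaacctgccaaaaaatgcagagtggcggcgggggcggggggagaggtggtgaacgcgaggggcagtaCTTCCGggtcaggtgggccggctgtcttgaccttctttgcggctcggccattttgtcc
ATP5PB: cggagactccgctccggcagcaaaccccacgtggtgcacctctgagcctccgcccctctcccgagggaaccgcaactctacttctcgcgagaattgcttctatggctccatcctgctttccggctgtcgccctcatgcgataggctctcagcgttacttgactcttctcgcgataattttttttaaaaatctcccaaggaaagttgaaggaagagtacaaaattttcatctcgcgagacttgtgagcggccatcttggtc
ATP5PO: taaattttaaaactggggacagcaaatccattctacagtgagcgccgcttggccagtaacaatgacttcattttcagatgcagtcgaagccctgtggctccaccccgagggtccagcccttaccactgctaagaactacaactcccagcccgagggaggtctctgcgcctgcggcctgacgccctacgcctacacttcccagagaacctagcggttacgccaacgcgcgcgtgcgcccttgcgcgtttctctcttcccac

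Among the 10 genes, 5 had a peak in the B1 knockout list, 6 in the ROSA26 list, 5 in the parental list and 5 in both controls. Over all protein-coding genes the share was 9.32% in the B1 knockout, 18.5% in the ROSA26 and 15.5% in the parental list, and 15.3% in both controls. The 95% Clopper-Pearson interval of 5 of 10 runs from 18.7% to 81.3%. ATP5F1C, ATP5F1E, ATP5PD, ATP5PF and ATP5MK had a peak in all 3 lists, as did 9.27% of all genes. ATP5F1B had a peak in the ROSA26 list alone, as did 3.12% of all genes. ATP5F1A, ATP5F1D, ATP5PB and ATP5PO had none by the rule. All 5 genes with a peak in both controls also had one in the B1 knockout list (exact interval 47.8% to 100%), against 60.4% of the 3063 protein-coding genes with a peak in both controls. The peaks were chosen on these lists and 4 of the 5 are shared with the end of another protein-coding gene, so nothing is read from the difference between those shares.

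Read numbers in this account are the reads that covered a summit, solved from the deposited fold enrichment and p-value of each peak. The B1 knockout list was the shortest, with 1660 peaks against 3857 in the ROSA26 list and 3024 in the parental list. Its median summit held 82 reads, against 122 in the ROSA26 and 132 in the parental list. The read background most common among its peaks was 9.86, against 14.2 in the ROSA26 and 15.4 in the parental list, a measure that moves with sequencing depth. The part of depth in the differences between the lists was not tested. Folds and ranks describe a peak within its own list only.

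The catalytic head is a ring of alternating alpha and beta subunits around the gamma subunit. ATP5F1A, at chr18:46080248-46104227, encodes alpha. The summits nearest to either end of its span lay 5913 bp away in the B1 knockout library and 5874 bp away in the ROSA26 and parental libraries, so the rule gave it none. RefSeq lists an inner start for this gene at position 46098296, and a peak lay over that start in every list. The summit was 18 bp before it in the B1 knockout library and 57 bp before it in the ROSA26 and parental libraries. It held 93 reads (95% Poisson interval 75.1 to 114) in the B1 knockout, 171 (146 to 199) in the ROSA26 and 132 (110 to 157) in the parental library. The B1 knockout library was the lowest of the 3, as it was at every subunit gene peak shared by all lists. The authors' fold enrichment was 8.60 in the B1 knockout, 9.83 in the ROSA26 and 8.04 in the parental list. The share of the list with an equal or higher fold was 23.4% in the B1 knockout, 25.4% in the ROSA26 and 35.8% in the parental list. Counting every listed start beside the span ends, a choice made after this peak was seen, brings the 10 genes to 6 with a peak in the B1 knockout, 7 in the ROSA26, 6 in the parental list and 6 in both controls. Over all genes the share is then 9.84% in the B1 knockout, 19.6% in the ROSA26 and 16.4% in the parental list, and 16.2% in both controls. It gives 6 members in all 3 lists, against 9.8% of all genes, and 1 in the ROSA26 list alone, against 3.29%. Of the members with a peak in both controls, 6 of 6 then also had one in the B1 knockout list, against 60.4% of all such genes.

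ATP5F1B, at chr12:56638175-56645984, encodes beta, which carries the catalytic sites. Its peak in the ROSA26 library covered chr12:56646024-56646541, with the summit 288 bp outside the span, and it was near no other gene's end. The summit held 125 reads (104 to 149) over a local background of 31.2 reads, and the fold was 3.92, with 72.4% of the ROSA26 list at or above it. By fold this is a weak peak, while by −log10 p 60.69% of the ROSA26 list stood at or above it. Its reads were above that list's median of 122, and its background was above the common value of 14.2. The nearest summit was 79366 bp away in the B1 knockout list and 79380 bp away in the parental list. Of the 385 ROSA26 peaks in the same of 10 equal bins of fold, 54.8% overlapped a parental peak, so absence from the parental list is common at that fold.

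ATP5F1C, at chr10:7788177-7807801, encodes gamma, the shaft that turns inside the head. Its summit held 52 reads (38.8 to 68.2) in the B1 knockout, 184 (158 to 213) in the ROSA26 and 146 (123 to 172) in the parental library. The B1 knockout interval lies below those of both controls, as it also did at ATP5F1E, ATP5PD, ATP5PF and ATP5MK, on reads not scaled for depth. The fold was 4.85 with 63.1% of the B1 knockout list at or above it, 12.2 with 14.9% in the ROSA26 list, and 8.88 with 29.3% in the parental list. The peak was 350 bp wide in the B1 knockout list, 696 bp in the ROSA26 and 576 bp in the parental list. It is shared with KIN, which encodes a zinc-finger DNA- and RNA-binding protein and is read in the opposite direction. The KIN start lies 184 bp from that of ATP5F1C, and the summits of the 3 lists were 13 to 26 bp from it, against 158 to 198 bp from the start of ATP5F1C.

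ATP5F1D and ATP5F1E encode delta and epsilon, which sit with gamma in the central stalk. No summit came closer to ATP5F1D than 139006 bp in the B1 knockout, 14486 bp in the ROSA26 and 67510 bp in the parental list. ATP5F1E, at chr20:59025475-59032335, had the weakest, by fold, of the member peaks listed in all 3 libraries. Its summit held 67 reads (51.9 to 85.1) in the B1 knockout, 166 (142 to 193) in the ROSA26 and 130 (109 to 154) in the parental library. The fold was 3.15 in the B1 knockout, 5.42 in the ROSA26 and 4.70 in the parental list. The share of the list at or above it was 95.7% in the B1 knockout, 54.9% in the ROSA26 and 68.3% in the parental list. In the B1 knockout list the peak thus stood close to the bottom by fold. By −log10 p the share at or above the peak was 88.19% in the B1 knockout, 44.46% in the ROSA26 and 59.23% in the parental list. Its local background was above the common value in every library, at 20.6 reads in the B1 knockout, 29.8 in the ROSA26 and 26.7 in the parental library. The summit lay 4 bp inside the gene in the B1 knockout library, 41 bp outside it in the ROSA26 and 73 bp outside it in the parental library. The far end of PRELID3B, which encodes a member of a family of mitochondrial lipid-transfer proteins, was 737 to 814 bp from the summits of the 3 lists.

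The peripheral stalk holds subunit b (ATP5PB), subunit d (ATP5PD), coupling factor 6 (ATP5PF) and the oligomycin sensitivity-conferring protein (ATP5PO), which joins the stalk to the head. ATP5PD, at chr17:75038863-75046969, held 109 reads (89.5 to 131) at its summit in the B1 knockout, 276 (244 to 311) in the ROSA26 and 219 (191 to 250) in the parental library. Its fold was 8.77 in the B1 knockout, 12.5 in the ROSA26 and 11.4 in the parental list. At or above it stood 22.2% of the B1 knockout, 13.6% of the ROSA26 and 15.4% of the parental list. The summit lay 18 bp before the gene in the B1 knockout, 55 bp in the ROSA26 and 71 bp in the parental library, with no end of another gene's span in reach. KCTD2, of a family of proteins with a potassium-channel tetramerisation domain, has an inner listed start in the opposite direction 256 bp away, and the summits of the 3 lists were 185 to 238 bp from it.

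ATP5PF, at chr21:25724500-25735653, had the widest peak of the group. Its summit held 136 reads (114 to 161) in the B1 knockout, 250 (220 to 283) in the ROSA26 and 218 (190 to 249) in the parental library. The fold was 12.5 in the B1 knockout, 14.3 in the ROSA26 and 13.2 in the parental list. At or above it stood 6.81% of the B1 knockout, 8.32% of the ROSA26 and 8.27% of the parental list. The peak spanned 733 bp in the B1 knockout, 1386 bp in the ROSA26 and 1322 bp in the parental list. By width it was rank 96 in the B1 knockout, rank 11 in the ROSA26 and rank 4 in the parental list. The summit lay 591 to 614 bp inside the outer end of the span, the furthest of any member peak within the 1 kb limit. RefSeq lists starts for ATP5PF at positions 25734904 and 25735054. Between them, 68 bp from the inner and 82 bp from the outer one, lies the start of GABPA itself, at chr21:25734972-25772460 and read in the opposite direction. The summit was 67 bp from that start in the B1 knockout, 89 bp in the ROSA26 and 90 bp in the parental library, so the gene of the precipitated factor and the coupling factor 6 gene share this peak. The summits nearest to ATP5PB and ATP5PO lay far off in every list, with 292741 bp as the shortest distance for ATP5PB and 361325 bp for ATP5PO.

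ATP5MK encodes a small subunit of the membrane sector, also known as DAPIT, and lies at chr10:103389050-103396475. It had the strongest peak of the group. Its summit held 187 reads (161 to 216) in the B1 knockout, 428 (388 to 471) in the ROSA26 and 371 (334 to 411) in the parental library. Its fold was 13.1 in the B1 knockout, 14.6 in the ROSA26 and 18.4 in the parental list. At or above it stood 6.02% of the B1 knockout, 7.42% of the ROSA26 and 1.16% of the parental list, where it was the peak of rank 35. The peak is shared with PDCD11, an rRNA-processing factor gene read in the opposite direction, whose start lies 151 bp from that of ATP5MK. The summits of the 3 lists were 27 to 51 bp from the PDCD11 start and 100 to 124 bp from the ATP5MK start.

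**Figure D1:**
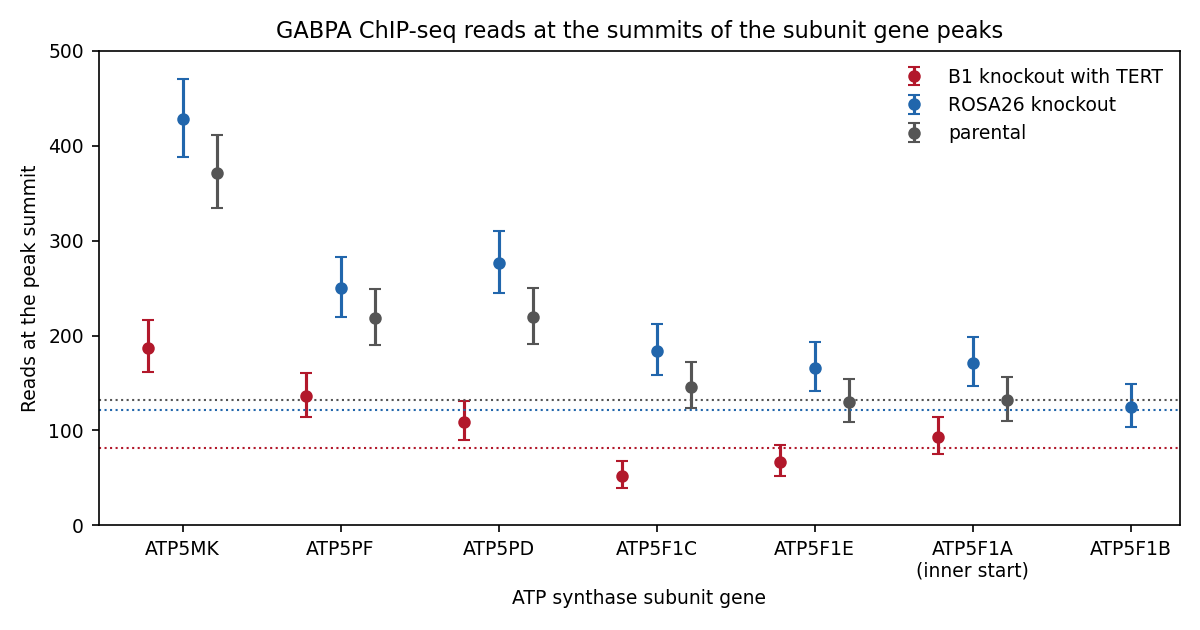
Reads at the summit of each subunit gene peak (y axis, number of reads, with exact 95% Poisson intervals) for the B1 knockout, ROSA26 and parental libraries, with dotted lines at each list's median summit (82 reads in the B1 knockout, 122 in the ROSA26 and 132 in the parental list). The B1 knockout point is the lowest at every gene with a peak in all 3 lists, and as a ratio of reads it is furthest below the controls at ATP5F1C.

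Ranked by fold within each list, the 6 genes with a peak in every list stood in the same order in the ROSA26 and parental libraries, namely ATP5MK, ATP5PF, ATP5PD, ATP5F1C, ATP5F1A and ATP5F1E. In the B1 knockout list ATP5F1A stood above ATP5F1C, and the rest of the order was the same. Ranked by −log10 p instead, the ROSA26 list put ATP5PD above ATP5PF, and the other lists kept ATP5PF above ATP5PD. By that rank the share of the list at or above the ATP5PF peak was 12.17% in the B1 knockout, 12.29% in the ROSA26 and 15.31% in the parental list, and the share at or above the ATP5MK peak in the ROSA26 list was 1.945%. The median share of the list at or above the member peaks found by the rule was 22.2% in the B1 knockout, 14.3% in the ROSA26 and 15.4% in the parental list. The ROSA26 value includes the ATP5F1B peak, which the other lists lack. By fold, ATP5F1C, ATP5F1E and ATP5PD stood lower in the B1 knockout list than in either control, and ATP5F1A and ATP5PF stood higher. Lists of such different length do not show a change by rank.

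**Figure D2:**
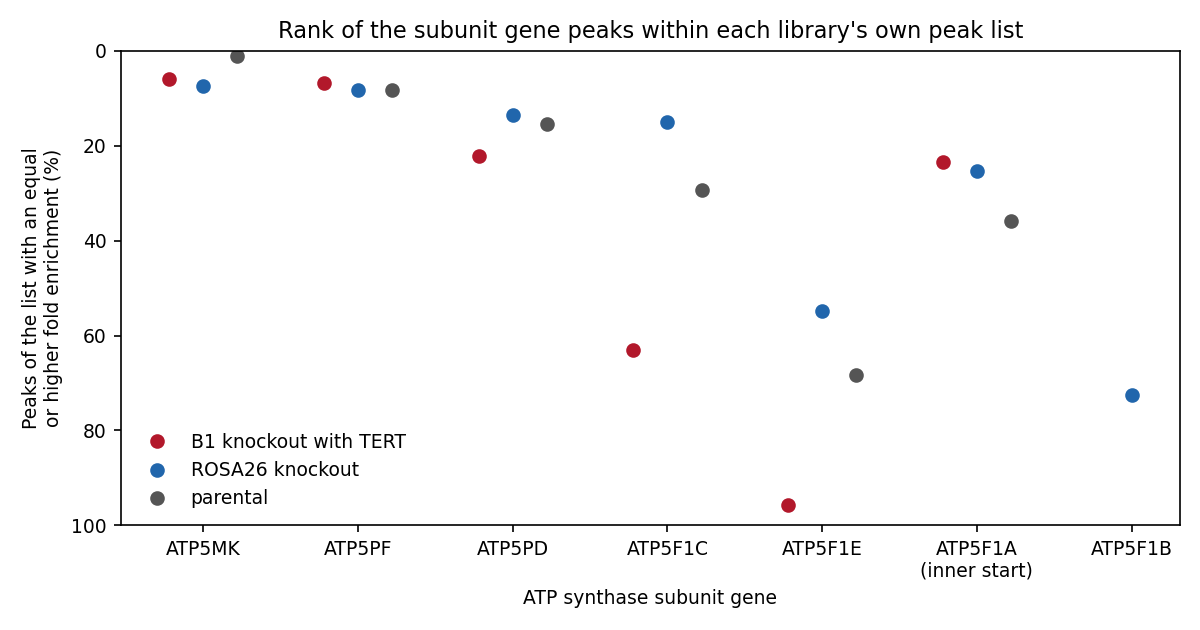
Share of each library's own peak list with an equal or higher fold enrichment (y axis, percent, with the strongest peaks at the top) for the subunit genes in the B1 knockout, ROSA26 and parental lists. By fold, ATP5MK and ATP5PF stay within the top 8.32% of every list, ATP5F1E lies at 95.7% in the B1 knockout, 54.9% in the ROSA26 and 68.3% in the parental list, and ATP5F1B has a point in the ROSA26 list only.

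Summit reads were then set against those of all 1628 peaks shared by the 3 lists. The median shared peak held 0.461 times as many reads in the B1 knockout as in the parental library and 0.402 times as many as in the ROSA26 library, and ROSA26 held 1.14 times as many as parental. Divided by that median, the B1 knockout over parental ratio was 1.53 at ATP5F1A (95% interval 1.16 to 2.01), 1.35 at ATP5PF (1.08 to 1.68), 1.12 at ATP5F1E (0.820 to 1.51), 1.09 at ATP5MK (0.912 to 1.31), 1.08 at ATP5PD (0.850 to 1.36) and 0.773 at ATP5F1C (0.552 to 1.07). The middle 90% of shared peaks ran from 0.628 to 1.49, so that ATP5F1A alone stood outside it, at the 96.4th percentile. Against ROSA26 the same ratio was 1.35 at ATP5F1A (1.04 to 1.75) and at ATP5PF (1.09 to 1.67), 1.09 at ATP5MK (0.911 to 1.29), 1.00 at ATP5F1E (0.745 to 1.34), 0.983 at ATP5PD (0.780 to 1.23) and 0.703 at ATP5F1C (0.507 to 0.961). All 6 lay within the middle 90% of that comparison, 0.621 to 1.56. The B1 knockout library enters both comparisons, so the second is not independent of the first. The median ratio, on the same scale, differed with peak strength. With shared peaks sorted by fold into 4 equal groups, it was 1.04, 0.916, 0.961 and 1.08 over parental, from weakest to strongest. Over ROSA26 it was 0.992, 0.929, 0.992 and 1.11. Within the strongest group ATP5PF stood at the 80.5th percentile over parental, against the 88.6th among all shared peaks. Over ROSA26 it stood at the 72.9th, against the 86.3rd. ATP5MK, in the same group, stood at the 51.5th percentile over parental and the 45.6th over ROSA26. ATP5F1A, ATP5F1C and ATP5PD stood higher within their own groups than among all shared peaks in both comparisons. Between the controls, ROSA26 over parental, the 6 genes lay between 1.01 and 1.14.

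These ratios rest on the choice of the shared peaks as the yardstick. A shared peak had to be listed in the B1 knockout library, which was more common for strong control peaks. The part of this selection in the ratios was not tested. Divided instead by the ratio of the common backgrounds, which moves the median shared peak to 0.720 for B1 knockout over parental and to 0.580 for B1 knockout over ROSA26, the values changed. Over parental, ATP5F1A came to 1.10, ATP5PF to 0.974, ATP5F1E to 0.805, ATP5MK to 0.787, ATP5PD to 0.777 and ATP5F1C to 0.556. Over ROSA26, ATP5PF came to 0.785, ATP5F1A to 0.784, ATP5MK to 0.630, ATP5F1E to 0.582, ATP5PD to 0.570 and ATP5F1C to 0.408. ATP5F1C was below 1 on both scales and in both comparisons, and no other member was. A direction for ATP5PF, ATP5F1E and ATP5MK depends on the scale in both comparisons, for ATP5PD in that with the parental library and for ATP5F1A in that with ROSA26.

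**Figure D3:**
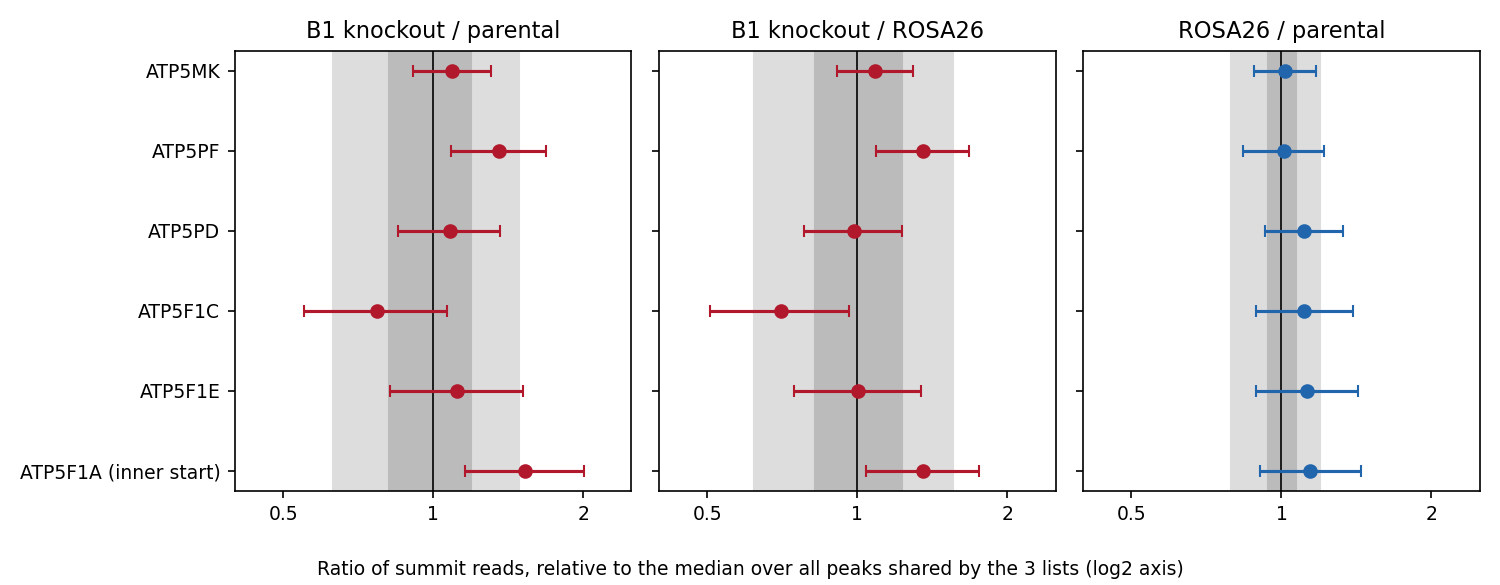
Ratio of summit reads between libraries for the 6 subunit genes with a peak in all 3 lists, divided by the median over 1628 shared peaks (x axis, log2 scale, bars are 95% intervals from counting error), with the middle 50% of shared peaks in dark and the middle 90% in light grey. ATP5F1A at 1.53 lies outside the light band in B1 knockout over parental and ATP5F1C lies below 1 in both knockout comparisons, while by the ratio of backgrounds every other gene lies below 1 in both knockout comparisons, except ATP5F1A over parental at 1.10.

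Whether a control peak was also listed in the B1 knockout library went with its strength. Among parental peaks shared with ROSA26, sorted by parental fold into 10 equal bins, 4.71% of the weakest and 99.3% of the strongest overlapped a B1 knockout peak. ATP5PF and ATP5MK fell in the strongest bin, ATP5PD in the 9th with 96.0%, ATP5F1C in the 8th with 94.9% and ATP5F1A in the 7th with 85.5%. ATP5F1E fell in the 4th, where 83 of 297 peaks (27.9%) were also in the B1 knockout list. ATP5F1E is thus the member whose presence there was least common for its parental fold. That fold is over a local background of 26.7 reads, against the common 15.4 of the parental list. Its 130 summit reads were near that list's median of 132. By −log10 p 59.23% of the parental list stood at or above it, against 68.25% by fold.

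**Figure D4:**
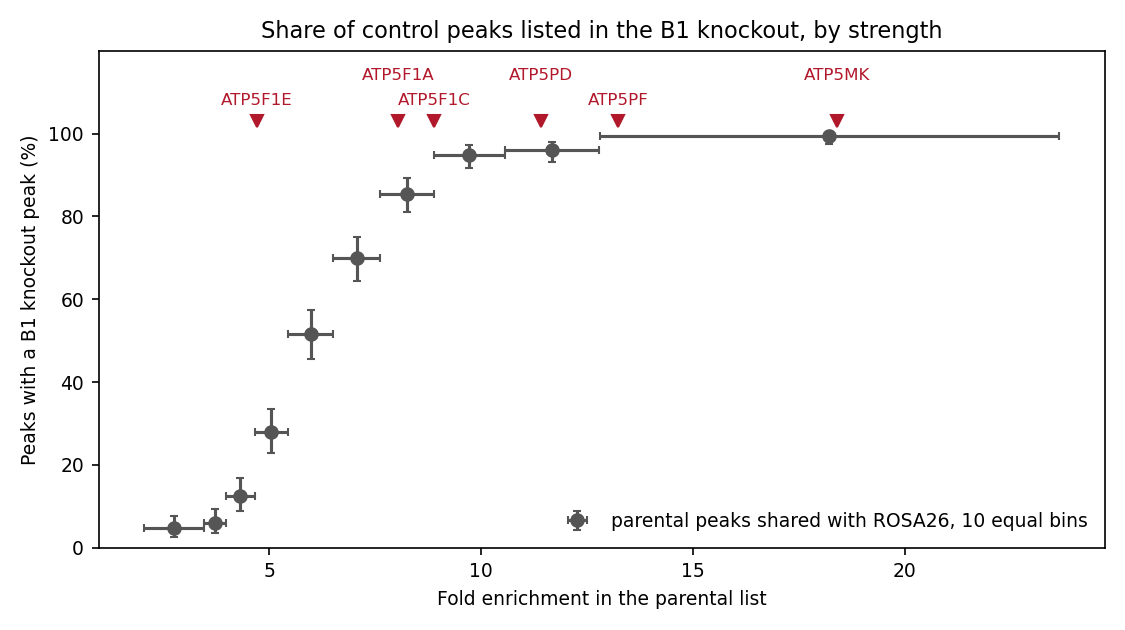
Share of parental peaks shared with ROSA26 that overlap a B1 knockout peak (y axis, percent, with exact 95% intervals) against parental fold enrichment (x axis, horizontal bars span each of 10 equal bins), with red marks at the fold of each subunit gene peak. The share climbs with fold between 4.71% and 99.3%, and ATP5F1E is the only subunit gene below a bin share of 85.5%.

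The promoter letters were counted on both strands in the whole RefSeq windows, which reach 250 bases before and 50 after a listed start. Windows were at hand for 8 of the 10 genes, 10 windows in all, and not for ATP5F1B and ATP5F1D. The full GABP core CCGGAAGT lay in 5.35% of all 22132 windows of protein-coding genes and in 46.9% of the 1462 windows with a summit in all 3 lists. Of the members, ATP5MK, ATP5PF, ATP5PD and ATP5F1A held it. The short core CGGAAG, which lies inside the full core, was present in 23.7% of all windows and in 88.0% of those with a summit in all 3 lists. ATP5MK held 5 copies, of which the first 2 overlap as CTTCCGGAAG. ATP5F1E held 3 copies and no full core, ATP5PD and the inner ATP5PF window 2 each, and ATP5F1C and the inner ATP5F1A window 1 each. ATP5PB and ATP5PO, which had a window and no peak in any list, held no short core. Of all 19221 windows without a summit, 15.3% held it, so its absence was common there. Both genes held the bare GGAA, as did 95.2% of all windows. The outer ATP5F1A window had no summit and held 1 short core, 42 to 47 bases from the start, so a core without a peak also occurred.

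The distance of the summits from these letters was then measured. In windows with a summit and a short core, the distance between the summit and the centre of the nearest core had a median of 15.5 bp in the B1 knockout, 16.5 bp in the ROSA26 and 15.5 bp in the parental library. Over the 3 lists ATP5MK stood at 4.5 to 12.5 bp, ATP5F1E at 22.5 to 28.5 bp and ATP5F1A at 11.5 to 27.5 bp. ATP5PD stood at 17.5 to 43.5 bp and ATP5PF at 18.5 to 41.5 bp. ATP5F1C had the longest distance of the 6 genes in the B1 knockout library, at 57.5 bp, and in the parental library, at 56.5 bp, but not in the ROSA26 library, at 17.5 bp. Its summit lay 4.5 bp in the B1 knockout and 3.5 bp in the parental library from another GGAA, which begins at position −195 from the start, inside ccggaaac and without the short core. From the centre of the full core the summits were 11.5 to 27.5 bp away at ATP5F1A, 32.5 to 56.5 bp at ATP5MK and 27.5 to 80.5 bp at ATP5PD. In the inner ATP5PF window that distance was 130.5 to 153.5 bp. Over all windows with a summit and a full core its median was 18.5 bp in the B1 knockout and 17.5 bp in the ROSA26 and parental libraries.

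**Figure D5:**
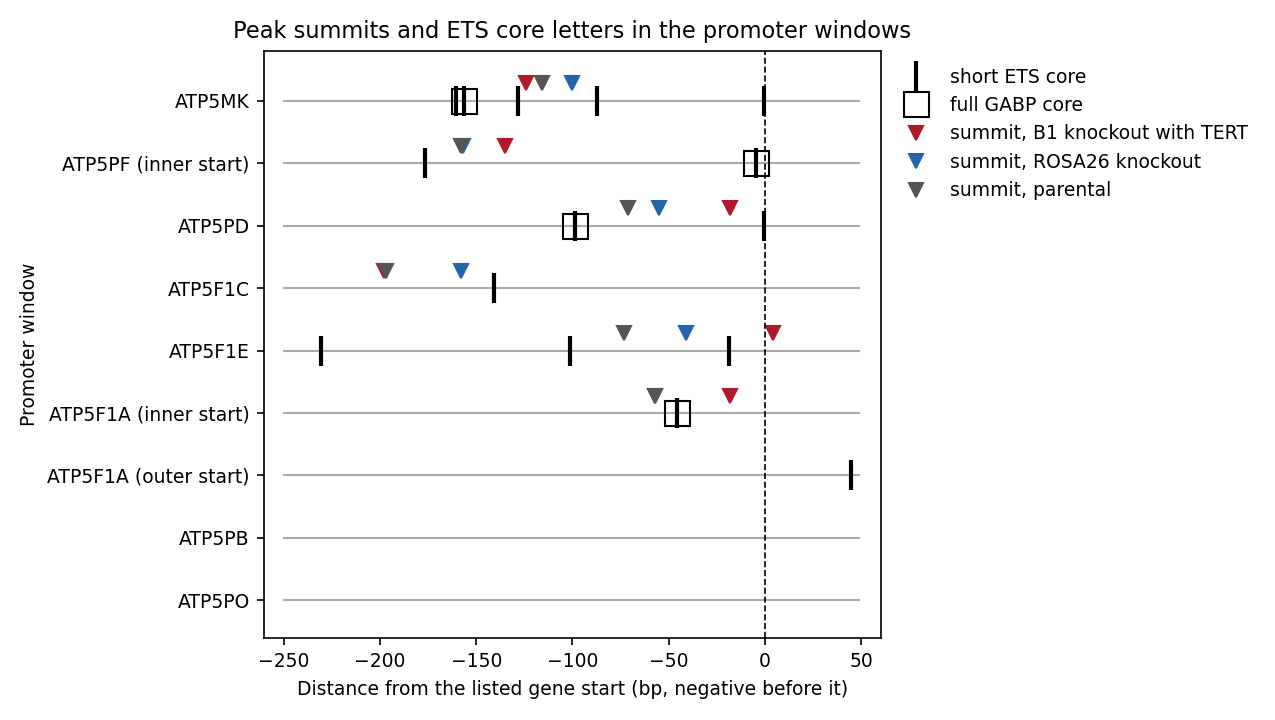
Positions of peak summits (triangles for the B1 knockout, ROSA26 and parental libraries), short ETS cores (ticks, CGGAAG on either strand) and full GABP cores (boxes, CCGGAAGT) in the promoter windows of the subunit genes, by distance from the listed start (x axis, bp). Every window with summits holds at least 1 short core, and ATP5PB and ATP5PO hold none. The parental triangle hides the ROSA26 one at ATP5F1A, as both lie 57 bp before the start. It also covers most of the ROSA26 one at ATP5PF (158 and 157 bp) and of the B1 knockout one at ATP5F1C (197 and 198 bp). The outer ATP5PF window is not drawn.

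Other letters were searched in the same windows. The NRF1 motif (GCGCA, then any base, then GCGC), found in 7.41% of all windows, occurred in ATP5F1C and in ATP5PO, so in a promoter with a peak and in one without. The YY1 motif AANATGGCG, in 4.25% of all windows, occurred in both ATP5PF windows, which overlap. TATAAA, in 9.46% of windows, occurred in the outer ATP5PF window alone among the members. Over all windows with a summit in both controls, the share that also had one in the B1 knockout list was 44.9% with no short core, 56.4% with 1 and 74.9% with 2 or more, and the median parental fold was 5.37 with none, 6.40 with 1 and 9.18 with 2 or more. Core number and peak strength thus moved together, and their separate parts were not tested.

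The other subunit genes of the enzyme were counted by the same rule. Of these 8 genes, 1 (12.5%) had a peak in the B1 knockout, 2 (25%) in the ROSA26 and 1 (12.5%) in the parental list. The shares over all genes were 9.32% in the B1 knockout, 18.5% in the ROSA26 and 15.5% in the parental list. Most genes of any kind thus lacked a peak, and nothing is read from these counts. ATP5ME, of subunit e in the membrane sector, held 66 reads at its summit in the B1 knockout, 164 in the ROSA26 and 136 in the parental library. Its fold was 6.13 in the B1 knockout, 8.54 in the ROSA26 and 8.13 in the parental list, and it shares the peak with MYL5, a myosin light chain gene whose end lies 235 to 274 bp away. ATP5MJ, of a small membrane-sector proteolipid, had a peak in the ROSA26 list only, with 50 reads and a fold of 3.35. ATP5MC1, ATP5MC2 and ATP5MC3, which encode the c subunit of the proton-driven ring, had none in any list, and neither had ATP5MF, ATP5MG and ATP5MGL.

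Among 7 genes for assembly and regulation of the enzyme, 1 had a peak in the B1 knockout, 2 in the ROSA26 and 2 in the parental list, against 9.32% of all genes in the B1 knockout, 18.5% in the ROSA26 and 15.5% in the parental list. FMC1, an assembly factor gene, held 50 reads (37.1 to 65.9) in the B1 knockout, 256 (226 to 289) in the ROSA26 and 233 (204 to 265) in the parental library. Its ratio divided by the median of shared peaks was 0.465 (0.336 to 0.634) for B1 knockout over parental and 0.486 (0.351 to 0.660) for B1 knockout over ROSA26, at the 0.399th and 0.891st percentile of shared peaks. That is below every subunit gene in both comparisons. FMC1 has the same span start as LUC7L2, a splicing factor gene, so the peak cannot be placed on either. TMEM242, which is needed for assembly of the c-ring, had a peak in both controls and none in the B1 knockout list, with 62 reads and a fold of 4.14 in the ROSA26 library and 59 reads and a fold of 3.63 in the parental library. In its bin of parental strength 6.06% of peaks were also in the B1 knockout list.

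The vacuolar proton pump is a related rotary enzyme that runs the other way, using ATP to acidify compartments. Of its 25 genes, 4 had a peak in the B1 knockout, 8 in the ROSA26 and 6 in the parental list, against 9.32% of all genes in the B1 knockout, 18.5% in the ROSA26 and 15.5% in the parental list. Of the 6 with a peak in both controls, 4 also had one in the B1 knockout list. The share was 60.4% over all protein-coding genes with a peak in both controls. ATP6V1A, of the catalytic subunit of its head, held 157 reads in the B1 knockout, 174 in the ROSA26 and 238 in the parental library, in a peak shared with NAA50. Its ROSA26 value was the low one among the controls, with 0.644 (0.526 to 0.786) for ROSA26 over parental once divided by the median. ATP6V1E1, of a stalk subunit, had a peak in the ROSA26 and parental lists only, with a fold of 9.95 in the ROSA26 and 8.52 in the parental list, although 85.5% of the parental peaks of that strength were also in the B1 knockout list. ATP6V1D, ATP6V1G2 and ATP6V0A2 also had a peak in all 3 lists. ATP6V1D held 51 reads in the B1 knockout, 182 in the ROSA26 and 148 in the parental library, beside EIF2S1. ATP6V1G2 held 134 reads in the B1 knockout, 260 in the ROSA26 and 241 in the parental library, at a summit 795 to 812 bp from its end and beside NFKBIL1. ATP6V0A2 held 49 reads in the B1 knockout, 148 in the ROSA26 and 126 in the parental library. ATP6V0D1 had a weak peak in both controls, with a fold of 3.65 in the ROSA26 and 4.16 in the parental list, and ATP6V1H and ATP6AP2 had a peak in the ROSA26 list only, with a fold of 2.91 for ATP6V1H and 4.40 for ATP6AP2.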

How the data were processed

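GABPA ChIP-seq of A-375 cells was used, with 1 ChIP library for each of 3 conditions and the groups taken from the labels. The submitters' processing notes name Bowtie2, SAMtools, MACS2 and the build hg38. Versions and thresholds are not given in the sources used. Each ChIP sample has its own deposited list. The deposited lists give, for each peak, a score, a fold enrichment (a ratio of summit pileup to local background) and −log10 values of p and q, all computed by the authors.

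The MACS2 formula, applied to fold and −log10 p, gave the summit reads of every peak within 0.01 in −log10 p. On 3 simulated lists of 295 or 296 peaks at least 98.6% of reads were recovered exactly. Those lists were made with the same formula, so they check the solving and not whether the deposited values follow it. Some member peaks, ATP5MK among them, lay outside the simulated range of reads or background. Depth per library is not in the lists, so the common background stands in for it. How closely that background follows depth was not tested. Read intervals are 95% Poisson and shares 95% Clopper-Pearson, counting error only, as each condition has 1 library. The Poisson intervals treat reads as independent, which was not checked. Peaks were called shared at an overlap of at least 1 bp.

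Gene spans and promoter windows came from RefSeq tables of GRCh38.p14, the assembly of hg38, and peak coordinates are written 1-based. The members and lists were chosen with earlier results of these data known. Named genes are the 10 members, the protein-coding genes with an end within 1 kb of a member peak's summit, listed genes with a peak and the other subunit genes; KCTD2 and the genes beside peaks of other lists were named after their values were seen. No test between conditions was made. The alternatives were a reach of 500 bp or 2 kb, the nearest gene end only, a −log10 q of at least 10, lists of equal length, ranks by −log10 p, the ratio of backgrounds, a stricter overlap, a shorter promoter window and, added after the data were seen, listed starts. Python 3.11.15, pandas 2.3.3 and SciPy 1.17.1 were used.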

Additional observations from a re-analysis of the deposited data

How the results depend on the processing

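No paired analysis was possible because each condition has 1 library and no test was made. Counting a peak for its nearest gene end only left 2 of the 10 genes in the B1 knockout, 3 in the ROSA26 and 2 in the parental list, with 2 in both controls and 2 also in the B1 knockout; these were ATP5F1E and ATP5PD, and ATP5F1B in ROSA26. Of all 19974 protein-coding genes, 1443 in the B1 knockout, 2956 in the ROSA26 and 2456 in the parental list then had a peak. The share of all control genes also in the B1 knockout list was then 57.88%, and 58.09% with a −log10 q of at least 10, where the assembly and regulation genes of the B1 knockout list fell to 0. A reach of 500 bp took ATP5PF out of every list. Cutting each list to its 1660 strongest peaks left 1890 protein-coding genes in the ROSA26 and 1897 in the parental list, with 88.99% also in the B1 knockout; ATP5F1E and ATP5F1B left the control lists, and the ROSA26 list held 1 other subunit gene, 1 assembly gene and 5 vacuolar pump genes and the parental list 1 assembly gene. Ranked by −log10 p, the median share of the list at or above the member peaks was 25.66% in the B1 knockout, 18.1% in the ROSA26 and 18.29% in the parental list. Divided by the ratio of backgrounds, the median of the 6 genes turned to 0.7961 for B1 knockout over parental, against 1.106 by shared peaks, and to 0.6061 for B1 knockout over ROSA26, against 1.046, and ROSA26 over parental moved to 1.365, against 1.11. The turned genes were ATP5F1E (0.805), ATP5PD (0.7774), ATP5PF (0.9744) and ATP5MK (0.7872) against parental, and ATP5F1A (0.7843), ATP5F1E (0.5821), ATP5PF (0.7846) and ATP5MK (0.6301) against ROSA26. A stricter overlap turned ATP5F1E against ROSA26 to 0.9995. The full core was in 2 genes with 100 bases before the start, against 4. The cause of these changes was not tested. The nearest-end setting was not run for the other gene lists.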
